A study of Mus musculus with 6 samples.

Results

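Carbonic anhydrase genes were followed by symbol through RNA from the epididymal fat pad, a white adipose depot near the testis, and all 9 were found among 21829 genes: Car2, Car3, Car4, Car5b, Car8, Car9, Car12, Car13 and Car14. They were picked by name, with earlier results of these libraries known. The mice were 20-week-old C57BL/6J males fed a normal diet, and gave 3 libraries labelled ZFP251 knockout (KO 1 to KO 3) and 3 labelled wild type (WT 1 to WT 3), with the wild types described as littermates. The allele, and whether each library was 1 mouse, are not given in the labels, so p-values cover only the spread among libraries, part of which may be technical. Levels are FPKM, fragments scaled by transcript length and sequencing depth, with values of a group given in the order of library number, and differences are KO minus WT on the log2(FPKM + 1) scale.

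Carbonic anhydrases catalyse the reversible hydration of carbon dioxide to bicarbonate and a proton. The isoforms differ by place: Car2, Car3 and Car13 are cytosolic, Car5b is mitochondrial, Car4 is held on the outer cell surface by a lipid anchor, and Car9, Car12 and Car14 span the membrane with the enzyme outside. Car8 has lost catalysis and binds an IP3 receptor, a calcium channel of the endoplasmic reticulum. Car3, a slow isoform, is known as an abundant protein of fat cells and slow muscle, and bicarbonate made in mitochondria is a substrate of the carboxylases that start gluconeogenesis and feed fatty acid synthesis.

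Zfp251, the targeted gene, was higher under the KO label: it had 6.48, 5.86 and 6.48 FPKM in KO, against 3.73, 3.56 and 2.95 FPKM in WT. The log2 difference was 0.72 (limma adjusted p = 0.223). As the allele is not given, the RNA level that a KO label should bring is not known, and whether the labels are right was not tested. KO below stands for the label, and every direction is that of the label. WT 3 differed from the rest by transcript length. Against the mean of each gene, its median log2 value was 0.77 for tested transcripts under 500 nt and -0.25 for those of at least 7000 nt, and each of the other 5 libraries lay between -0.22 and 0.10 in both classes. Epithelial RNA separated the WT libraries. The 8 epithelial markers summed to 179, 190 and 92.3 FPKM in KO, against 80.1, 15.1 and 8.01 FPKM in WT. The fat cell markers were present throughout: the 8 of them summed to between 26625 and 32432 FPKM in KO and between 36983 and 70073 FPKM in WT.

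Promoter sequence is shown for 4 genes: Car5b, the isoform with the smallest p, Car4 of the cell surface, Car14, whose 3 KO values all lay above WT, and Car9, a textbook target of hypoxia-inducible factor. RefSeq's promoter table on build GRCm38.p6 held 5 of the 9 genes, Car12 being the fifth. The 250 bases before the annotated start are printed 5′ to 3′ on the gene's strand, from chrX:164028011-164028260 (minus) for Car5b, chr11:84957504-84957753 (plus) for Car4, chr3:95904686-95904935 (minus) for Car14 and chr4:43506776-43507025 (plus) for Car9. These starts are RefSeq's, and motif positions are counted from them. The GENCODE vM21 gene models used below place starts differently. There Car9 begins at 43506966 and Car14 at 95904691, both inside the printed windows. Capitals mark exact matches, on either strand, to the motifs listed after them.

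Car5b: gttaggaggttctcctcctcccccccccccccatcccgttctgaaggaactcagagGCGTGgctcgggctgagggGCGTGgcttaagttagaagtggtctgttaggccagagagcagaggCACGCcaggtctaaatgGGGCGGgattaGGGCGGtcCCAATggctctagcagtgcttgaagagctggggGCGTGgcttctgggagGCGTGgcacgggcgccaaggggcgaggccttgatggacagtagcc

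Car4: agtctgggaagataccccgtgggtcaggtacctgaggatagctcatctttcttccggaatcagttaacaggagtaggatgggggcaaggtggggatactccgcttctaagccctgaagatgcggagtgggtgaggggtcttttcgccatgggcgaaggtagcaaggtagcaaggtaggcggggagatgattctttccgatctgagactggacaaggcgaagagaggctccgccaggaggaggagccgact

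Car14: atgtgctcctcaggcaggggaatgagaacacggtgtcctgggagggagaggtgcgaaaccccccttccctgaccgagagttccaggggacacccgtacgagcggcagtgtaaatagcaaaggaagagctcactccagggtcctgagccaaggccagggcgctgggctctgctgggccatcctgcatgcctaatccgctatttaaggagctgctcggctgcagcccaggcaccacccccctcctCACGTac

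Car9: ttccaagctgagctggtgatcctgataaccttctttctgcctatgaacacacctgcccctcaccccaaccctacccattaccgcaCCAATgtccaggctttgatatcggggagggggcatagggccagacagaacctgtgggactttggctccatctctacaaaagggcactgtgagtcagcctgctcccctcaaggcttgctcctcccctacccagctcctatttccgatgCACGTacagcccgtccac

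The motifs searched were the hypoxia element cores ACGTG and GCGTG, the CCAAT box CCAAT, the TATA box TATAAA and the GC box GGGCGG. In the same order they occur in 16.6%, 28.2%, 33.8%, 12.4% and 32.7% of 32851 promoter windows of this length. Car5b held 5 GCGTG matches, 2 GC boxes and 1 CCAAT box, the CCAAT box lying at -94 to -90, counted from the annotated start. Car14 held 1 ACGTG match, at -7 to -3, and Car9 had 1 at -18 to -14 and a CCAAT box at -165 to -161. By the GENCODE starts, the ACGTG match of Car9 lies inside the transcribed region and that of Car14 spans the start. Car4 held none of the 5 motifs, and Car12, not printed, held 1 GC box. No 2 matches overlapped. GC content was 63.6% in Car5b, 62% in Car14, 59.2% in Car12 and 56.4% in both Car4 and Car9, against a median of 52.4% over all windows. A match is a run of letters, not a proven site.

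Car3 was the second most abundant transcript of the fat pad by mean level, between Cfd, which encodes the complement protease adipsin, and Fabp4, a fatty acid binding protein. It had 10096, 10990 and 12242 FPKM in KO, against 16613, 12873 and 20703 FPKM in WT. All KO values lay below all WT values, and the nearest pair was KO 3 and WT 2. It ranked 2nd of all genes in each KO library, and 1st, 2nd and 3rd in WT. The means were 11109 ± 1078 FPKM in KO and 16730 ± 3916 FPKM in WT (SD, n = 3 each), so the KO mean was 66.4% of the WT mean. The log2 difference was -0.57, with a 95% interval from -1.39 to 0.25, and limma's adjusted p was 0.509. With quantile normalization, which sets the most abundant genes of every library to the same values, the difference was 0.00666 (limma adjusted p = 0.988). The standard error was 0.35 with a mean-variance trend and 0.19 without it (limma adjusted p = 0.266), the difference being the same. With 1679 nt in its longest transcript, Car3 falls in the class from 1000 to 2000 nt, where WT 3 had a median of 0.30 above the gene means. After each library's trend over transcript length was removed its log2 difference was -0.43 (limma adjusted p = 0.275), and without WT 3 it was -0.40. Car3 (ENSMUSG00000027559) has 7 exons and spans 14863512 to 14872523 on the plus strand of chromosome 3 in GRCm38, the assembly of mm10.

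As a share of all FPKM, Car3 took 2.36%, 2.56% and 2.79% in KO, against 3.52%, 2.75% and 3.25% in WT. Here KO 3 lay above WT 2, so the groups overlapped. The mean share was 2.57% ± 0.211 in KO and 3.17% ± 0.391 in WT (SD, n = 3 each), and an exact permutation test, two-sided, gave p = 0.2, where 0.1 is the smallest p that 3 libraries against 3 allow. The summed FPKM itself was 431748 ± 6659 in KO and 526173 ± 96777 in WT. The family as a whole was almost all Car3: among the 16 carbonic anhydrase genes of the table it made up between 98.4% and 98.5% of the family's FPKM in KO and between 98.1% and 98.6% in WT.

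Other fat cell genes also had lower values in KO, and Car3 was set beside them. Of 8 adipocyte markers, 8 had lower KO means, 5 of them with no overlap between the groups. Over all tested genes 59.2% had a log2 difference below 0, and 12.2% were lower in KO with no overlap. The markers were uneven: Cfd, Fabp4 and Adipoq had log2 differences of -0.78, -0.76 and -0.67, and Plin1, the coat protein of the lipid droplet, the lipase Lipe and the hormone Lep had -0.09, -0.10 and -0.13. For Cfd, Fabp4 and Adipoq, WT 3 stood far above the other WT libraries. It had 33638, 23451 and 5889 FPKM, where WT 1 and WT 2 had at most 16675, 12500 and 2844 FPKM. Lep was also highest in WT 3, at 456 FPKM. Car3 stood at 4.82, 4.96 and 4.90 times Adipoq, which encodes adiponectin, in KO, against 5.95, 4.53 and 3.52 times in WT. The KO ratios lay inside the WT range. To Plin1 it stood at 8.90, 10.5261 and 10.1 times in KO, against 15.1, 10.5386 and 16.2 times in WT. Those groups did not overlap, though KO 2 and WT 2 were almost level. Over the 8 markers the groups overlapped for the other 7, and the mean ratio was lower in KO for 5 and higher for 3. The 3 were Adipoq, Fabp4 and Cfd, and in each of them WT 3 had the lowest ratio of all libraries. These ratios were chosen after the values were seen, and the part of fat cell content in the Car3 result was not tested. In bulk tissue, fewer cells of a type and less RNA per cell cannot be told apart. Skeletal muscle markers, for the other tissue rich in Car3, summed to 20.5, 11.8 and 9.71 FPKM in KO, against 21.6, 27.1 and 75.9 FPKM in WT. The groups did not overlap, though KO 1 and WT 1 were close. Lower KO means were seen in 7 of 9, where 59.2% of all tested genes had a log2 difference below 0. Ckm, Myh4 and Tnnt3 had 10.3, 6.30 and 11.6 FPKM in WT 3, and at most 0.249 FPKM in WT 1 and WT 2. Tnnc1 and Myh7 had higher KO means. The slow muscle myosin Myh7 did not exceed 0.026 FPKM in any library. The part of muscle RNA was not tested either.

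Car13, the other cytosolic isoform that was lower in KO, had 6.13, 6.61 and 7.98 FPKM in KO, against 10.9, 8.80 and 14.8 FPKM in WT. The groups did not overlap, and WT 2 was again the lowest and WT 3 the highest of the WT libraries. The means were 6.91 ± 0.956 FPKM in KO and 11.5 ± 3.06 FPKM in WT (SD, n = 3 each), a KO mean of 60.1% of WT. On the log2 scale the difference was -0.64 (standard error 0.19, limma adjusted p = 0.230, unadjusted 0.0136). Car13 RNA was a small fraction of Car3 RNA: Car3 stood at 1646, 1663 and 1535 times Car13 in KO and at 1531, 1463 and 1396 times in WT. Those groups did not overlap, though KO 3 and WT 1 were almost level.

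**Figure D1:**
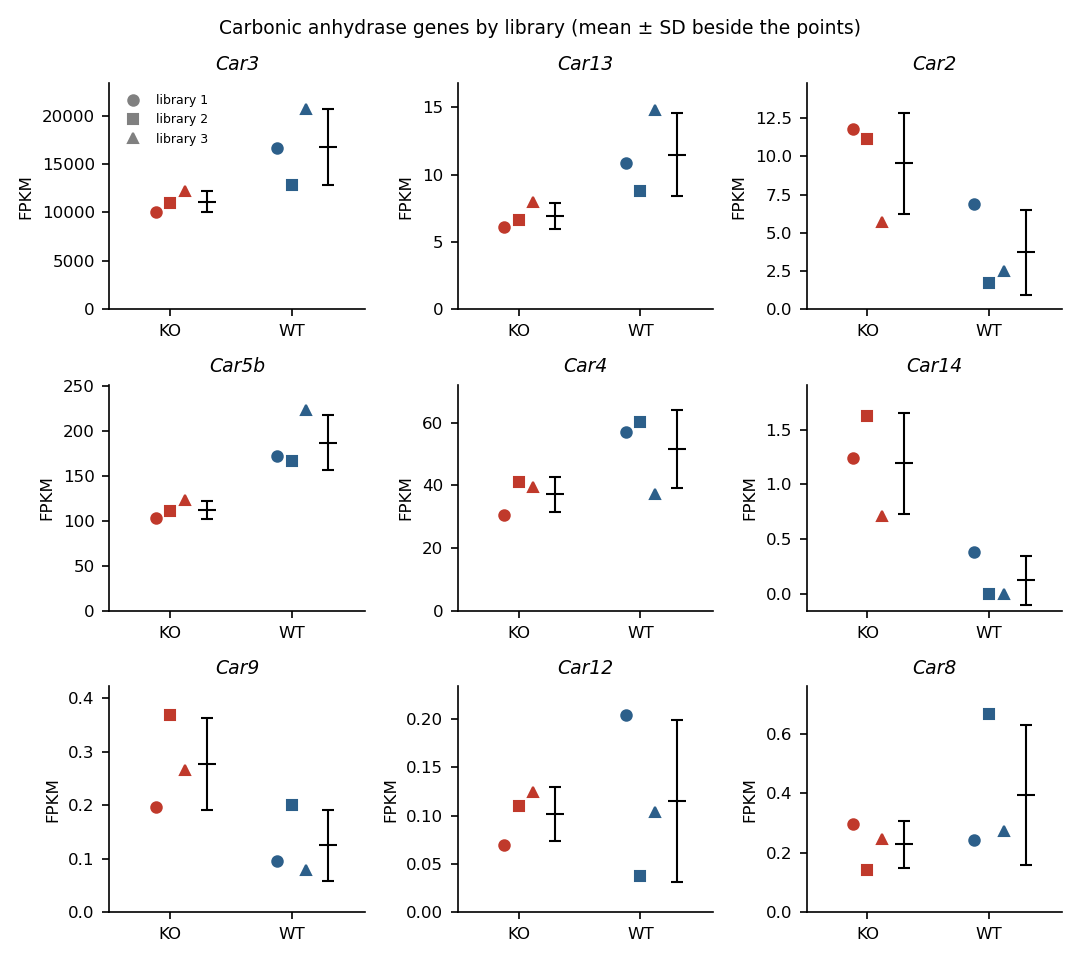
FPKM of each of the 9 carbonic anhydrase genes (vertical axes, linear, a separate scale in each panel) in the 3 KO and 3 WT libraries, with circles, squares and triangles for libraries 1, 2 and 3 and the mean ± SD beside them. Car3, Car13 and Car5b lay lower in every KO library than in any WT library, Car14 lay higher, and WT 1 lay among the KO libraries in Car2.

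On the log2(FPKM + 1) scale, Car3 and Car13 followed each other more closely than either followed any other tested gene. Likeness was measured as the root mean square difference between 2 genes' log2(FPKM + 1) profiles over the 6 libraries, each centred on its own mean. Between Car3 and Car13 it was 0.0535, the smallest of 12538 comparisons for Car3 and also the smallest for Car13. The genes next nearest to Car3 were Mrps10, a mitochondrial ribosomal protein, at 0.0545 and Pex16, a peroxisome assembly factor, at 0.0652. Next to Car13 they were Bscl2, which encodes the lipid droplet protein seipin, at 0.0629 and Mccc1, a subunit of the leucine-degrading carboxylase, at 0.0678. The 6 points share their libraries, so the high level of WT 3 enters every such distance. The added 1 also shrinks changes in Car13, a low gene, and hardly those in Car3. With 0.1 added instead, the log2 differences were -0.70 for Car13 and -0.57 for Car3, against -0.64 and -0.57 with 1. Whether the ranking holds with a smaller addition was not tested.

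Both genes belong to a cluster on chromosome 3 in which Car13, Car1, Car3 and Car2 follow each other within 259 kb, with no other protein-coding gene annotated between them in GENCODE vM21. The starts of Car13, Car1 and Car3 lie 245, 77.9 and 22.8 kb before the start of Car2, and Car1 alone is on the minus strand. Nearness in the cluster did not go with a like profile. Car2, the closest neighbour of Car3, ranked 12118th of 12538 genes in likeness to it, at 1.08, and Car1 ranked 4324th, at 0.310. Sequence that could share reads was looked for, since Car3 was so much more abundant than Car13. The longest exact stretch shared by Car3 and Car13 transcripts in GENCODE vM21 was 12 nt, and with any other family gene the longest for Car3 was 28 nt.

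**Figure D2:**
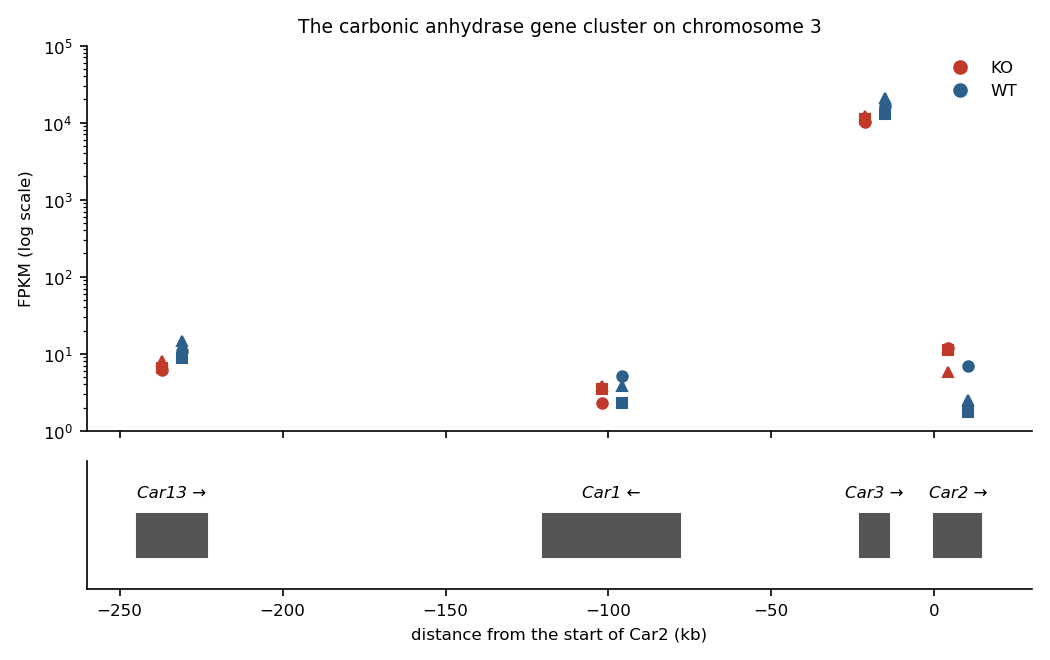
FPKM (vertical axis, log scale) of the 4 clustered carbonic anhydrase genes in KO (red, left) and WT (blue, right) libraries, drawn over the gene bodies at their distance from the start of Car2 in kb, with arrows for strand. Car3 exceeds its 3 neighbours by about 3 orders of magnitude, Car13 is lower and Car2 mostly higher in KO, and the Car1 groups overlap.

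Car2, the fast cytosolic isoform common in red cells, kidney and ion-moving epithelia, ran the other way. It had 11.8, 11.1 and 5.74 FPKM in KO, against 6.88, 1.76 and 2.54 FPKM in WT. The groups overlapped, because WT 1 lay above KO 3. The means were 9.54 ± 3.31 FPKM in KO and 3.73 ± 2.76 FPKM in WT (SD, n = 3 each), a KO mean 2.56 times that of WT. On the log2 scale the difference was 1.25 (standard error 0.43, limma adjusted p = 0.276, unadjusted 0.0226). Without WT 1 it was 1.70 with a limma adjusted p of 0.0411, when 482 genes passed in all, 469 of them higher in KO. With sample weights it was 0.74 with an adjusted p of 0.157, and over all alternatives the adjusted p ran from 0.0411 to 0.762.

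Epithelial RNA moved with Car2 across the libraries. All 8 epithelial markers had higher KO means, where 40.8% of all tested genes had a log2 difference above 0, and their sum was between 92.3 and 190 FPKM in KO and between 8.01 and 80.1 FPKM in WT. WT 1, the WT library with the most Car2, was also the one with the highest epithelial sum. The 3 genes most like Car2 in profile were Mpzl2, an epithelial adhesion protein, at a root mean square difference of 0.0982, Klhl14 at 0.131 and Sec14l4 at 0.132. Mpzl2 had 9.38, 8.90 and 4.76 FPKM in KO, against 4.44, 1.13 and 1.68 FPKM in WT. In WT 2 and WT 3, where Car2 was lowest, the epithelial sum was 15.1 and 8.01 FPKM, with 11.1 and 5.71 FPKM of the keratin Krt19 and 0.199 and 0.191 FPKM of the adhesion gene Epcam. Red cell markers had lower KO means in 8 of 8, where Car2 had a higher one. They summed to between 506 and 1374 FPKM in KO and between 1303 and 3538 FPKM in WT, so the groups overlapped. Among the WT libraries, both the red cell sum and Car2 were lowest in WT 2. The part of either cell type in the Car2 level was not tested.

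Car14, a membrane-spanning isoform of kidney, liver and retina, was below the filter of a mean of 1 FPKM and had no limma test among the filtered genes. It had 1.24, 1.62 and 0.712 FPKM in KO, and 0.387 FPKM in WT 1, and was listed at 0 in WT 2 and WT 3. The groups did not overlap, and the exact permutation test, two-sided, gave p = 0.1, the smallest possible. Like the epithelial sum, it was highest in KO 2 and, among the WT libraries, highest in WT 1. Fitted with no filter on low values, it differed by 0.95 on the log2 scale (standard error 0.22, limma adjusted p = 0.419, unadjusted 0.00847). That fit gave Car3 a standard error of 21.1, against 0.35 in the filtered fit, so its standard errors and p-values are doubtful. The 8 multiciliated markers, of the epithelium that bears motile cilia, summed to 81.0, 81.8 and 37.4 FPKM in KO, against 29.4, 0.759 and 1.046 FPKM in WT. The part of that epithelium in Car14 was not tested. Of 6 listed markers of the acid-secreting clear cells of the epididymis, 4 stayed under 0.1 FPKM in every library, the regulator Foxi1 being listed at 0 in all 6. The other 2 were proton pump subunits that were detected throughout: Atp6v0a4 had 4.66, 5.09 and 2.00 FPKM in KO, against 1.64, 0.300 and 0.134 FPKM in WT, and Atp6v0d2 had between 0.539 and 7.05 FPKM in KO and between 1.11 and 5.47 FPKM in WT. The 6 summed to between 5.20 and 9.04 FPKM in KO and between 1.24 and 5.80 FPKM in WT, and the 8 caput epididymis markers to between 0.658 and 1.26 FPKM in KO and between 0.089 and 1.59 FPKM in WT.

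Car5b, the mitochondrial isoform, was the second most abundant family member and the one with the smallest p, the 80th smallest of 12539 tested genes. It had 103, 111 and 123 FPKM in KO, against 173, 166 and 223 FPKM in WT. The groups did not overlap, and WT 3 was the highest. The means were 112 ± 10.05 FPKM in KO and 187 ± 31.03 FPKM in WT (SD, n = 3 each), a KO mean of 60.1% of WT. The log2 difference was -0.72 (standard error 0.15, 95% interval from -1.09 to -0.35). By limma the unadjusted p was 0.00248 and the adjusted p 0.223, short of the threshold. The gene (ENSMUSG00000031373) has 8 exons in its longest transcript and lies on the minus strand of chromosome X, from 163976822 to 164027997 in GRCm38.

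The level of Car5b was likewise set beside each of the 8 fat cell markers. The KO ratios lay below WT without overlap for 3 markers, Plin1, Cidec and Lipe, and overlapped for the other 5. To Plin1 the ratio was 0.0908, 0.107 and 0.102 in KO, against 0.157, 0.136 and 0.174 in WT. To Fabp4 it was 0.0119, 0.0130 and 0.0125 in KO, against 0.0138, 0.0138 and 0.00950 in WT. The outcome turned on the marker and on the WT library. For Fabp4, Adipoq and Lep the overlap came from WT 3 alone, for Pnpla2 from WT 2, and for Cfd from WT 2 and WT 3. To Car3, Car5b kept an almost fixed proportion in KO. Car3 stood at 98.01, 98.7 and 99.5 times Car5b in KO, against 96.2, 77.5 and 92.9 times in WT. The genes most like Car5b in profile were Apmap, a membrane protein of mature fat cells, at 0.0831, the glutathione peroxidase Gpx1 at 0.0964, and Car13 at 0.0975. Car5a, the liver form of the mitochondrial enzyme, was listed at 0 in all 6 libraries.

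Car4, the surface isoform known from capillary endothelium, was the third most abundant. It had 30.6, 41.2 and 39.6 FPKM in KO, against 57.1, 60.2 and 37.4 FPKM in WT. WT 3 lay among the KO libraries, so the groups overlapped, in contrast to Car3, Car5b and Car13, where WT 3 was the highest library. The means were 37.1 ± 5.70 FPKM in KO and 51.6 ± 12.4 FPKM in WT (SD, n = 3 each). On the log2 scale the difference was -0.45 (standard error 0.21, limma adjusted p = 0.420, unadjusted 0.0737), and without WT 3 it was -0.66. After each library's trend over transcript length was removed it was -0.26.

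Among the WT libraries, endothelial markers were lowest in WT 3, as Car4 was, though over all libraries Car4 was lowest in KO 1. The 8 of them summed to 496, 535 and 458 FPKM in KO, against 645, 634 and 334 FPKM in WT. By single markers the tight junction gene Cldn5 had 91.4, 72.6 and 92.1 FPKM in KO, against 190, 163 and 44.4 FPKM in WT. In WT 3 Gpihbp1, at 163 FPKM, lay among the KO libraries and Emcn, at 18.7 FPKM, lay above them. Of the 8 tested markers 3 had a log2 difference below 0 and 5 above, with a median of 0.09. The part of endothelial content in the Car4 result was not tested.

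**Figure D3:**
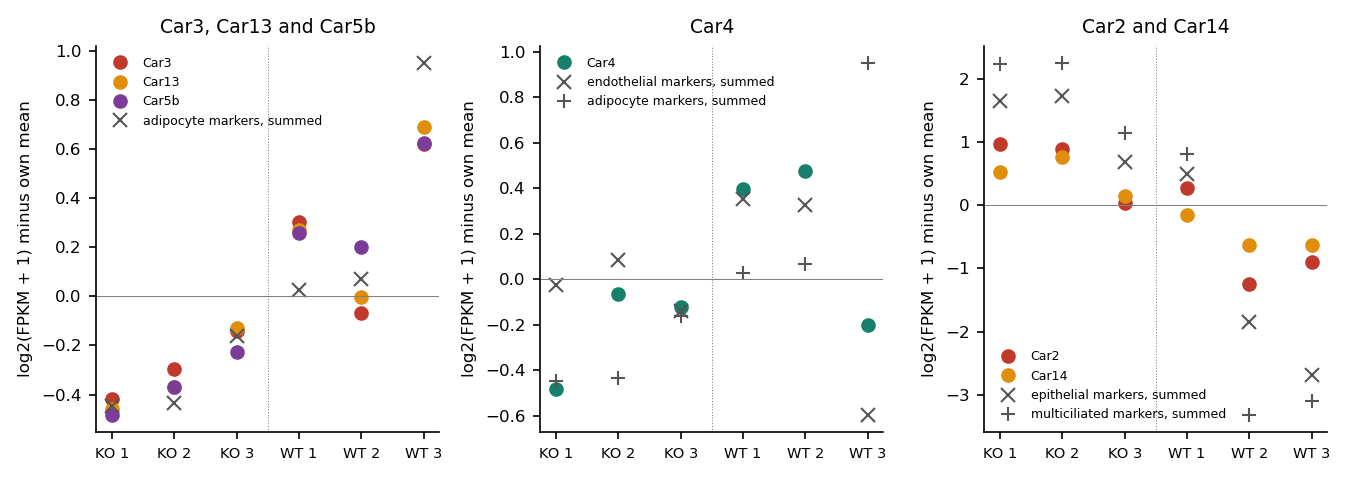
Log2(FPKM + 1) of carbonic anhydrase genes and of summed cell type markers, each minus its own mean over the 6 libraries (vertical axes), by library with KO left of WT. Car3, Car13 and Car5b lie together with WT 3 highest. Car4 is lower in WT 3 than in WT 1 and WT 2, like the endothelial sum. Car2 and Car14 are higher in WT 1 than in WT 2 and WT 3, like the epithelial and multiciliated sums.

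The hypoxia-responsive surface isoforms Car9 and Car12 and the non-catalytic Car8 were at trace levels. Car9 had 0.197, 0.369 and 0.266 FPKM in KO, against 0.096, 0.201 and 0.079 FPKM in WT. The groups overlapped by KO 1 and WT 2 (exact permutation p = 0.2). Car12 had between 0.07 and 0.124 FPKM in KO and between 0.038 and 0.204 FPKM in WT, with the KO values inside the WT range (exact permutation p = 0.9). Car8 had between 0.143 and 0.298 FPKM in KO and between 0.244 and 0.666 FPKM in WT (exact permutation p = 0.5). At an unknown total depth, these values do not show whether the genes differ.

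By level the order was Car3, Car5b and Car4 in every library. Below them Car13 and Car2 overlapped in KO, at 6.13 to 7.98 and 5.74 to 11.8 FPKM, and were apart in WT, at 8.80 to 14.8 and 1.76 to 6.88 FPKM. Next came Car14 in KO, while in WT the ranges of Car14, Car8, Car9 and Car12 ran into each other. The family genes that are not among the 9 split in the same way into low and trace levels. Car1, Car7 and Car11 had means over the 6 libraries of 3.48, 4.11 and 2.69 FPKM, with log2 differences of -0.15, 0.17 and -0.14 and overlapping groups. Car6, Car10 and Car15 were under the filter. Car15 had 0.288, 0.282 and 0.185 FPKM in KO, against 0.578, 1.02 and 0.835 FPKM in WT, with no overlap (exact permutation p = 0.1).

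No carbonic anhydrase gene passed limma's Benjamini-Hochberg adjusted threshold, and neither did any of the 12539 tested genes (0%). Of the 9 genes, 5 were tested and 4, namely Car8, Car9, Car12 and Car14, were below the filter. At an unadjusted p under 0.05 there were 3, Car5b and Car13 with lower and Car2 with higher KO values, where 13.6% of all tested genes reached that p (4.43% lower and 9.13% higher). Among the 5 the groups did not overlap in Car3, Car5b and Car13, all lower in KO, where that held for 22.2% of all tested genes (12.2% lower and 10.1% higher). Over all tested genes the median log2 difference was -0.05, with 59.2% below 0 and 40.8% above. With sample weights 3 of the 5 passed, Car4 at -0.70, Car5b at -0.68 and Car13 at -0.64 (limma adjusted p = 0.0427, 0.0367 and 0.0388), when 970 genes passed in all. The weights ran from 0.142 for WT 3 to 4.02 for WT 1.

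**Figure D4:**
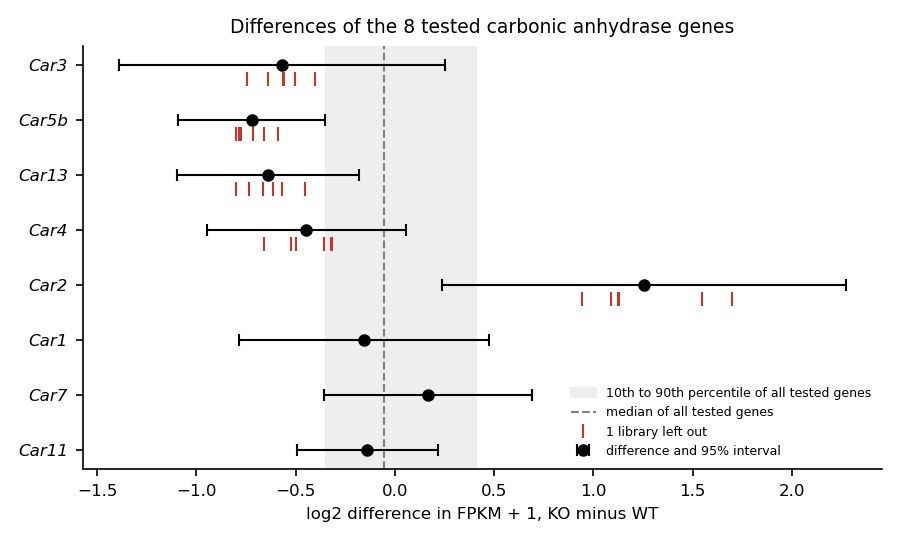
Log2 differences in FPKM + 1, KO minus WT (horizontal axis), of the 8 tested carbonic anhydrase genes with 95% intervals from limma, over the median and the 10th to 90th percentile of all tested genes, with red ticks for the values with 1 library left out where the gene is one of the 9. Car5b, Car13, Car3 and Car4 lie below the grey band and Car2 above it, and only the intervals of Car5b, Car13 and Car2 leave out 0.

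Enzymes that use bicarbonate had mostly lower values in KO, as Car5b did. Of 10 listed, 8 were tested, 7 had lower and 1 higher KO values, with a median log2 difference of -0.43, where 59.2% of all tested genes had lower values. By limma 0 passed after adjustment, and 4 were under an unadjusted p of 0.05, as 13.6% of all tested genes were. Acacb, the acetyl-CoA carboxylase at the mitochondrial surface, had 38.9, 33.1 and 27.1 FPKM in KO, against 50.3, 49.9 and 40.9 FPKM in WT. All 3 KO values lay below WT, with a log2 difference of -0.51. Mccc1, of leucine breakdown, had -0.57 and Pcca, a propionyl-CoA carboxylase subunit, -0.46. Cad, which starts pyrimidine synthesis, was the exception at 0.47. Pyruvate carboxylase (Pcx), which Car5b is known to supply, had 297, 307 and 455 FPKM in KO, against 439, 407 and 522 FPKM in WT, and KO 3 lay above 2 of the WT libraries. The 8 fat cell markers, all lower in KO, had a median log2 difference of -0.46. Neither the part of fat cell content in these values nor a link with Car5b was tested.

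Among bicarbonate and proton transporters, the genes with the smallest p had higher KO values. Over all tested genes 40.8% had a log2 difference above 0, and 13.6% had an unadjusted p under 0.05 by limma. Of 15 bicarbonate transport genes 9 were tested, 8 higher and 1 lower, with a median of 0.27 and 0 past limma's adjusted threshold (3 with an unadjusted p under 0.05). Slc26a3, a chloride-bicarbonate exchanger, had 8.86, 9.26 and 4.08 FPKM in KO, against 3.65 and 0.046 FPKM in WT 1 and WT 2 and a listed 0 in WT 3. Like Epcam it had more in WT 1 than in the other WT libraries. Cftr, the chloride and bicarbonate channel, had a log2 difference of 1.06, the exchanger Slc4a8 1.14 and the cotransporter Slc4a4 0.34. Of 24 proton export genes 16 were tested, 9 higher and 7 lower (median 0.09, 0 past the threshold by limma, 4 with an unadjusted p under 0.05). These 4 were Atp6v0a4, a proton pump subunit, at 1.58, the sodium-proton exchanger Slc9a3 at 2.03, its scaffold Slc9a3r1 at 0.83 and the lactate exporter Slc16a3 at 0.95. The part of epithelium in these values was not tested.

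All 3 IP3 receptor genes, the family to which Car8's partner belongs, had higher KO values, none past limma's adjusted threshold. Over all tested genes 40.8% had a log2 difference above 0 and 59.2% below 0, and 13.6% had an unadjusted p under 0.05 by limma. The log2 differences were 0.31 for Itpr1, 0.45 for Itpr2 and 0.66 for Itpr3, and the unadjusted p was under 0.05 for Itpr2 and Itpr3. Among 14 hypoxia targets, the gene class of Car9 and Car12, 9 had lower and 5 higher KO values, a split near that of all tested genes. Their median was -0.09, with 0 past the threshold by limma and 4 with an unadjusted p under 0.05. Vegfa, the angiogenic factor, had 86.1, 92.3 and 87.0 FPKM in KO, against 151, 111 and 137 FPKM in WT. Those groups did not overlap, at a log2 difference of -0.57. In the opposite direction Ankrd37 had 1.21, Ndrg1 0.85 and the glucose transporter Slc2a1 0.43. The regulators Hif1a, Epas1, Arnt and Vhl had differences of 0.08, 0.14, 0.02 and 0.16, with overlapping groups.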

How the data were processed

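Per the labels' protocols, libraries came from TRIzol-extracted total RNA by a stranded mRNA kit. The submitters' processing notes name mm10, STAR 2.5.4, Cuffdiff 2.2.1 and Cufflinks; for filters and annotation the sources used here give nothing. The deposited values, 1 column per library, were read as FPKM made by the authors. That unit was inferred from the tools and the values, since no header names it, and how depth was scaled is not given.

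The members and lists were chosen with earlier results of these data known. A symbol with several rows kept its highest row by mean, which dropped 24 of 21853 rows. The 12539 genes averaging 1 FPKM or more were tested as log2(FPKM + 1), a scale that understates the change of low genes, with limma 3.58.1 in R 4.3.3 (group as the only term, mean-variance trend, Benjamini-Hochberg adjusted p under 0.05 over all of them). The other tests were exact permutation tests, two-sided, in scipy 1.17.1. The fit was tested on simulated data.

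The named genes were the 9 members, Zfp251, the other family genes, up to 4 genes with the smallest p of each list and the 3 nearest profiles of each tested member ranging by at least 1 on the log2 scale. Other genes, markers and ratios were picked with their values in view. Listed symbols absent from the table were matched by RefSeq synonyms (Pc as Pcx, Dnai1 as Dnaic1). Among genes between 0.03 and 0.12 FPKM, the commonest step between libraries gave depths relative to WT 1 of 0.832, 0.653 and 0.946 for KO 1, KO 2 and KO 3 and 0.79 for WT 2, from 15.3% to 21.8% of genes; WT 3 gave no clear step (11.2%). No counting intervals are given, as total depth is unknown.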

Additional observations from a re-analysis of the deposited data

How the results depend on the processing

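Over 16 alternatives the log2 differences of Car2, Car4, Car5b and Car13 kept their signs. They ran from 0.74 to 1.70 for Car2, from -0.70 to -0.26 for Car4, from -0.80 to -0.46 for Car5b and from -0.80 to -0.45 for Car13. Car3 ran from -0.74 to -0.40 with 1 library left out and reversed, to 0.00666, with quantile normalization, which sets the most abundant genes of every library to the same values. Genes called numbered 0 in the reported fit, 1 with no filter on low values (Exo1, a DNA repair nuclease, not chosen by the rule for named genes), 970 with sample weights, and from 0 to 482 with 1 library left out, 482 being without WT 1. The standard errors of the fit with no filter are doubtful, that of Car3 being 21.1. Carbonic anhydrase genes called numbered 3 with sample weights and from 0 to 1 with 1 library left out, Car2 without WT 1 being that 1. The cause was not tested. The difference in Car3 share ran from -0.81 to -0.43 percentage points with 1 library left out. Whether the replicate numbers pair the libraries is not settled. Deviations of same-numbered libraries correlated at 0.228, -0.200 and 0.220 for numbers 1, 2 and 3, and those of other pairs from -0.477 to 0.426. With the replicate block 0 genes and 0 carbonic anhydrase genes were called (limma, 1714 genes with an unadjusted p under 0.05, against 1700 without it). The smallest limma adjusted p was 0.0881 with the block and 0.223 without it, and that of Car5b was 0.0942 with it. Median-ratio factors ran from 0.983 to 1.03. The low levels of Car8, Car9, Car12 and Car14, at unknown depth, limit what can be said of them.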
